A study of Homo sapiens with 4 samples.

Results

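ATP-binding cassette (ABC) transporters were examined in sorted fractions of Huh7, an established human hepatocellular carcinoma line. The members were all genes whose symbol in the platform annotation is ABC, a letter from A to G and a number, and that have a probe with exactly 1 symbol; 43 of 18377 measured genes met this rule. Where a gene had several such probes, the one with the highest mean was taken. They comprised 12 genes of subfamily A, 8 of B, 11 of C, 3 of D, 1 of E, 3 of F and 5 of G. ABCC13, among them, is a transcribed pseudogene. Total RNA was measured on 4 arrays, 1 for each fraction (+ for marker-positive, - for marker-negative): CD133+ and CD133- cells from one sort, ALDH+ and ALDH- cells from another. CD133 is a surface protein encoded by PROM1, ALDH is aldehyde dehydrogenase, and both are used to enrich candidate cancer stem cells, the contrast that the series title names. All fractions come from 1 line with no treatment named in the labels, and the sorting marker is the only difference that the labels name. The pairing into sorts follows that marker. The pairs may also differ in how cells were stained and sorted, which cannot be told apart from the marker. With 1 array per group no difference below has a replicate check or a p-value, and "higher" and "lower" describe these arrays only. The number of arrays limits the precision.

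ABC proteins share a nucleotide-binding domain that hydrolyses ATP. Most couple it to membrane-spanning domains and move lipids, bile salts, conjugates, peptides or drugs out of the cytoplasm, whereas the E and F subfamilies lack membrane-spanning domains and act in translation. Hepatocytes place several of them on the canalicular face, where they drive bile formation, and others on the face towards the blood. Efflux of drugs and of the Hoechst dye by ABCB1 and ABCG2 is also a trait by which stem-like tumour cells have been isolated.

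The largest differences among the members above the expression floor given below belonged to 3 efflux pumps, ABCB1, ABCC2 and ABCG2. All 3 were higher in CD133+ than in CD133- cells and lower in ALDH+ than in ALDH- cells. Their promoters are shown because these members had the largest differences and shared their signs. Each window runs from 250 bases before to 50 bases after the annotated start, 5′ to 3′ on the gene's strand, from RefSeq on GRCh38.p14. It was the most downstream window of the gene, out of 2 for ABCB1, 1 for ABCC2 and 5 for ABCG2. Capitals mark matches on either strand to any of 6 motifs, in which N is any base. They are the TATA box TATAAA, the NF-Y core CCAAT, the GC box GGGCGG and the antioxidant response core TGACNNNGC. The others are a loose AP-1-like pattern, TGANTCA, and the E-box CACGTG. The ABCB1 window lies at chr7:87600835-87601134 on the minus strand, that of ABCC2 at chr10:99782390-99782689 on the plus strand and that of ABCG2 at chr4:88158590-88158889 on the minus strand.
ABCB1: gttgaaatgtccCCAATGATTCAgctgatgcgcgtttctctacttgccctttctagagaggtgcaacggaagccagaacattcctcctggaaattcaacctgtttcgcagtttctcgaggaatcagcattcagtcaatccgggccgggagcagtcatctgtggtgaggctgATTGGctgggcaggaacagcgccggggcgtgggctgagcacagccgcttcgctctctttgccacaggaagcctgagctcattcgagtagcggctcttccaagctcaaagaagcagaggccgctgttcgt
ABCC2: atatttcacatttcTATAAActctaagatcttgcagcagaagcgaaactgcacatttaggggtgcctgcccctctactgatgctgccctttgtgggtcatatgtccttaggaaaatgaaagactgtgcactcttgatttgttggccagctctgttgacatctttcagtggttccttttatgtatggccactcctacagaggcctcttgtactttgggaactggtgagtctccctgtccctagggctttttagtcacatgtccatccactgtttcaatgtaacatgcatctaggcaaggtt
ABCG2: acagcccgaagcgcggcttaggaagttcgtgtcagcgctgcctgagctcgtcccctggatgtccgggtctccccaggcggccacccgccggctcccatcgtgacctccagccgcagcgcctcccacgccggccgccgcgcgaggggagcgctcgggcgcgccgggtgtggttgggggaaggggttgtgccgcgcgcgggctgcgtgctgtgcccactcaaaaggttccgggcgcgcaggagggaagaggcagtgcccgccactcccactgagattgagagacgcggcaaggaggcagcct

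The 3 windows differed in base composition. The share of G and C was 55.3% in ABCB1, 45% in ABCC2 and 72% in ABCG2, against a median of 58.7% over all 35097 RefSeq windows, and CpG dinucleotides numbered 16, 1 and 35 in that order. The ABCB1 window held CCAAT on the gene's strand starting 238 bases before the start and on the other strand 79 bases before it, and TGANTCA 234 bases before it, overlapping the first CCAAT by a base. The ABCC2 window held TATAAA 236 bases before the start. The ABCG2 window held none of the 6 motifs, which says only that these letters are not in this window. No motif was present in all 3 windows. CCAAT occurs in 34.6% of all windows, TATAAA in 11.5% and TGANTCA in 7.71%. Of the 43 members, 34 had promoter windows in the RefSeq table, 51 in all. Among these 51 windows, CCAAT was found in 12, TATAAA in 8, GGGCGG in 25, TGACNNNGC in 12, TGANTCA in 6 and CACGTG in 9. Over all windows GGGCGG occurs in 44.9%, TGACNNNGC in 13.3% and CACGTG in 7.25%.

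The deposited values are on a log2 scale after RMA, and their median over all probes and arrays, 4.98, served as an expression floor. A gene was above the floor in a sort where the brighter of the 2 arrays reached it. Of the 43 ABC genes, 23 were above the floor in the CD133 sort, 24 in the ALDH sort; 22 were above it on all 4 arrays and 19 below it on all 4. The median over all probes was 4.99 on the CD133+, 4.92 on the CD133-, 5.04 on the ALDH+ and 4.98 on the ALDH- array. PROM1 was at 9.0 in CD133+ and 5.32 in CD133- cells, and at 7.11 in ALDH+ and 8.39 in ALDH- cells. All 10 hepatocyte and hepatoma markers, such as ALB, AFP and TF, were above the floor on all 4 arrays. Of markers of other cell types, PTPRC, CD3E, ITGAM and CD2 of 7 measured leukocyte genes, DCN, LUM and ACTA2 of 7 fibroblast genes and VWF, KDR and TEK of 6 endothelial genes lay below the floor on all 4 arrays. Above it were CD14, CD68 and LYZ, the fibroblast genes COL1A1, COL1A2, COL3A1 and PDGFRB, and the endothelial gene CLDN5, with PECAM1 and CDH5 above it in the ALDH sort only. LYZ was at 7.52 in CD133+ and 8.22 in CD133- cells, and at 7.77 in ALDH+ and 6.44 in ALDH- cells. CD68 was at 7.15 in CD133+ and 7.08 in CD133- cells, and at 7.10 in ALDH+ and 7.87 in ALDH- cells.

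ABCB1 encodes P-glycoprotein, the multidrug efflux pump of the canalicular membrane and of many barrier epithelia. Its log2 level was 8.58 in CD133+ and 7.57 in CD133- cells, and 8.02 in ALDH+ and 9.09 in ALDH- cells. It was thus 2.01-fold higher in CD133+ cells, a log2 difference of 1.01, and 2.10-fold lower in ALDH+ cells, a difference of -1.07. The ALDH- array was the highest of the 4 and the CD133- array the lowest. Among the genes above the floor ABCB1 ranked 83 from the top of 11591 in the CD133 sort and 120 from the bottom of 11879 in the ALDH sort.

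ABCC2 encodes MRP2, which exports bilirubin glucuronides, glutathione conjugates and drugs into bile. Its log2 level was 7.83 in CD133+ and 7.14 in CD133- cells, and 7.12 in ALDH+ and 8.58 in ALDH- cells. The ALDH+ and CD133- arrays differed little from each other, and the ALDH- array stood highest. ABCC2 was 2.75-fold lower in ALDH+ cells, a log2 difference of -1.46, the most negative of the family, and ranked 23 from the bottom. In the CD133 sort it was 1.62-fold higher, a difference of 0.70, and ranked 210 from the top.

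ABCG2 encodes BCRP, which works as a dimer and exports urate, sulphated conjugates, drugs and Hoechst dye. Its log2 level was 6.51 in CD133+ and 5.53 in CD133- cells, and 5.61 in ALDH+ and 6.87 in ALDH- cells. Both CD133+ and ALDH- cells were well over the other pair of arrays, which lay close together. ABCG2 was 1.96-fold higher in CD133+ cells, a log2 difference of 0.97, and 2.40-fold lower in ALDH+ cells, a difference of -1.26. It ranked 89 from the top in the CD133 sort and 51 from the bottom in the ALDH sort. All 3 genes were above the floor on every array.

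**Figure D1:**
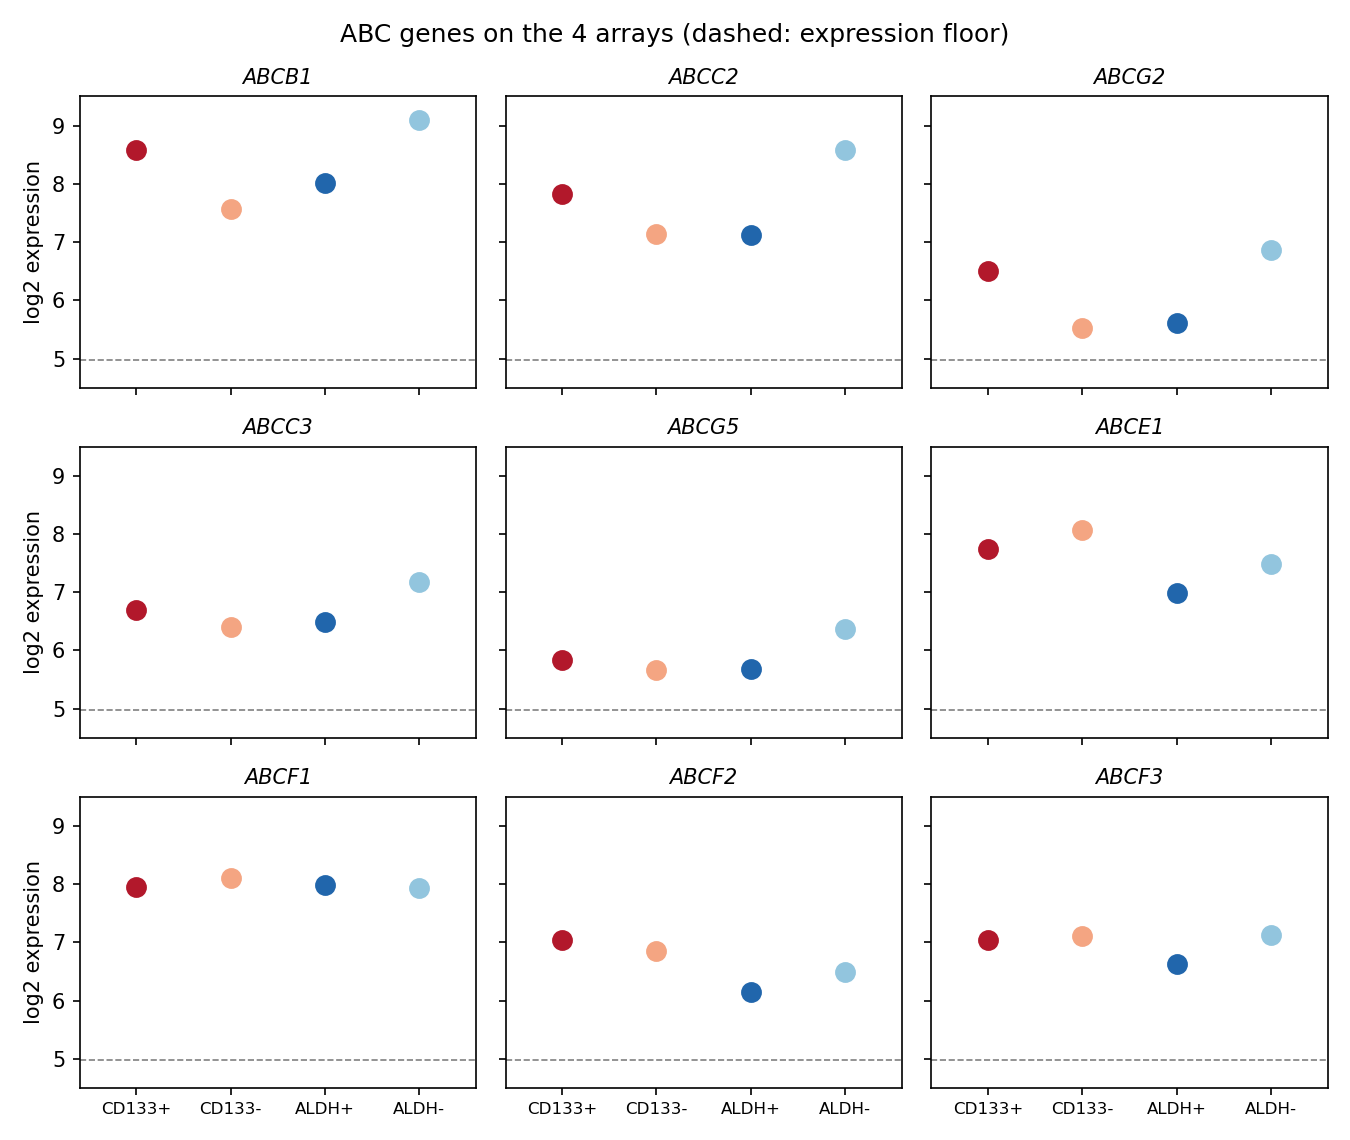
Log2 expression (vertical axis) of 9 ABC genes on the 4 arrays (horizontal axis), 1 point per array and 1 panel per gene, with the expression floor of 4.98 as a dashed line; levels are to be compared within a panel, since each gene has its own probe. In ABCB1, ABCC2, ABCG2, ABCC3 and ABCG5 the ALDH- array is the highest and the CD133+ array the next, while ABCE1, ABCF1, ABCF2 and ABCF3 do not share that order.

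At 2-fold, ABCB1 alone of the 23 members above the floor was higher in CD133+ cells, where 0.716% of all genes above the floor were, and 0 were lower, where 0.164% were. In the ALDH sort 3 of 24 members, ABCB1, ABCC2 and ABCG2, were lower by 2-fold or more, beside 1.3% of all genes, and 0 were higher, beside 0.278%. At 1.5-fold, 3 of 23 members were higher in CD133+ cells (2.74% of all genes) and 0 lower (1.89%). In the ALDH sort 5 of 24 were lower at 1.5-fold (6.6%) and 0 higher (4.15%). The additional genes were ABCC3 and ABCG5. Of the 23 members above the floor in both sorts, 3 combined a higher CD133 with a lower ALDH value at 1.5-fold, beside 1.23% of 11293 genes, and 1, ABCB1, did so at 2-fold, beside 0.416%. Whether the differences of the 2 sorts differ from each other could not be tested with these arrays.

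ABCC3, or MRP3, exports conjugated bile acids and glucuronides across the basolateral membrane. It was at 6.69 in CD133+ and 6.40 in CD133- cells, and at 6.49 in ALDH+ and 7.18 in ALDH- cells, so only the ALDH- array stood apart. The log2 differences were 0.30 and -0.69. ABCG5 forms with ABCG8 the heterodimer that secretes cholesterol and plant sterols into bile. Its levels were 5.84 in CD133+ and 5.66 in CD133- cells, and 5.69 in ALDH+ and 6.37 in ALDH- cells, with differences of 0.18 and -0.68. Again 3 arrays lay close together and the ALDH- array above them. Its partner ABCG8 had the same direction in the ALDH sort with a smaller difference, -0.28, and differed by -0.04 in the CD133 sort. ABCG5 and ABCG8 are neighbours on chromosome 2.

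Over the whole family the median depended on the floor. Over all 43 members the median CD133 difference was 0.03 and the median ALDH difference -0.01, against -0.01 and 0.03 over all 18377 genes. By sign, 23 members were higher and 20 lower in CD133+ cells, beside 49% and 50.9% of all genes, and 20 were higher and 23 lower in ALDH+ cells, beside 53.8% and 46.1%. Over the members above the floor the medians were -0.04 and -0.26, against -0.04 and -0.01 over all genes above it, and 17 of 24 were lower and 7 higher in ALDH+ cells, where 51.5% and 48.5% of all genes were. In the CD133 sort 11 of 23 were higher and 12 lower, beside 42.9% and 57.1%. The ALDH median was -0.35 with the floor raised to the 75th percentile of all values. It also depended on the 5 genes at 1.5-fold: without these 5 it was -0.14 over the other 19 above the floor and 0.02 over the other 38 members, a description of a set chosen from these values.

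**Figure D2:**
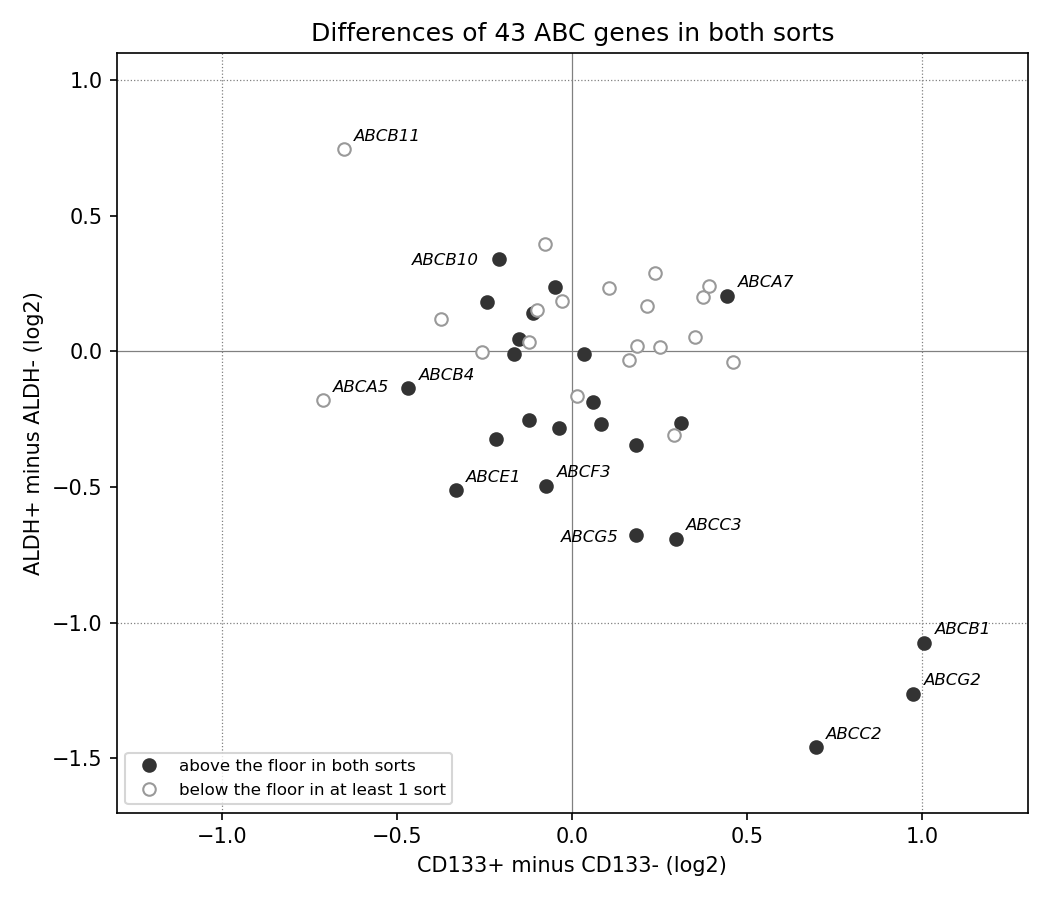
Each point is 1 of 43 ABC genes, with its log2 difference in the CD133 sort on the horizontal axis and in the ALDH sort on the vertical axis; filled points were above the expression floor in both sorts, open points below it in at least 1, and dotted lines mark 2-fold. ABCB1, ABCC2 and ABCG2 lie alone at the lower right, at CD133 differences of 0.70 to 1.01 and ALDH differences of -1.46 to -1.07, and ABCB11, below the floor, lies alone at the upper left.

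Across the 23 members above the floor in both sorts, the differences of the sorts had a Pearson's r of -0.71 and a Spearman's rho of -0.49. This is a description across genes that share the same 4 arrays and their joint normalization. Without ABCB1, ABCC2, ABCG2, ABCC3 and ABCG5 the values over the other 18 were 0.03 and -0.04, so the relation rested on those 5 genes. Over 11293 genes they were -0.12 and 0.02. The CD133+ and ALDH- arrays were the 2 highest in 7 of the 23 members, beside 13.3% of all genes. ALDH- cells gave the highest value in 9 of the 23 (24.2% of all genes) and ALDH+ cells the lowest in 11 (33.4%). Those 5 genes were among the 7 and among the 9, so both of these counts in part restate their choice.

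Members were also grouped by role, and these sets hold genes already named above for their large differences. In the ALDH sort 4 of the 8 drug efflux pumps above the floor were among the 5 genes at 1.5-fold. So were 4 of the 6 canalicular exporters above it. The medians of these sets in part restate that choice. Of 9 drug efflux pumps, 7 were higher in CD133+ cells (median 0.30) and 8 were lower in ALDH+ cells (median -0.27), beside 49% and 46.1% of all genes. Over the 8 above the floor the medians were 0.30 and -0.48. Besides the genes above, ABCC10 was at 0.31 and -0.26, the glutathione conjugate exporter ABCC1 at 0.08 and -0.27, the cyclic nucleotide exporters ABCC4 at 0.06 and -0.19 and ABCC5 at -0.12 and -0.25, and ABCC11, below the floor on all arrays, at -0.10 and 0.15. Each pair gives the CD133 difference and then the ALDH difference, as do the pairs below. Of 7 canalicular exporters, 4 were higher in CD133+ cells (median 0.18), a share near the 49% of all genes, and 6 were lower in ALDH+ cells (median -0.68). Over the 6 above the floor, without ABCB11, the medians were 0.44 and -0.88. ABCB4, which moves phosphatidylcholine into bile, was lower in both positive fractions, at -0.47 and -0.14; the first is the most negative CD133 difference of the members above the floor. ABCB4 and ABCB1 are close paralogs and neighbours on chromosome 7, and their probes gave opposite signs in the CD133 sort. ABCB11, the bile salt export pump, was at 3.28 in CD133+ and 3.94 in CD133- cells, and at 3.93 in ALDH+ and 3.19 in ALDH- cells. All these values lie below the floor, so its differences of -0.65 and 0.75 are uncertain. The 3 measured basolateral exporters ABCC1, ABCC3 and ABCC4 are also among the drug efflux pumps counted above. All 3 were lower in ALDH+ cells, between -0.69 and -0.19, beside 51.5% of all genes above the floor. They were higher in CD133+ cells, between 0.06 and 0.30, beside 42.9%.

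Of 11 genes of cholesterol and phospholipid movement, which include ABCB4, ABCG5 and ABCG8, 7 were higher in CD133+ and 6 lower in ALDH+ cells. Over all genes these shares were 49% and 46.1%. ABCG5 alone reached 1.5-fold above the floor. Over the 6 above the floor the medians were 0.00 and -0.07. The other 5 were below it on all 4 arrays, the cholesterol exporters ABCG1 and ABCG4, the surfactant lipid transporter ABCA3, the photoreceptor transporter ABCA4 and the epidermal lipid transporter ABCA12. ABCA1, which loads cholesterol onto apolipoprotein A-I, differed by -0.16 and -0.01, and ABCA2 by 0.03 and -0.01. ABCA7 was higher in both positive fractions, at 0.44 and 0.21, and lay just below the floor in CD133- cells at 4.96. The 5 genes ABCA5, ABCA6, ABCA8, ABCA9 and ABCA10, a run of neighbours on chromosome 17, were below the floor on every array. ABCA5 had the largest difference among them, -0.71 in the CD133 sort, from 3.89 in CD133+ and 4.60 in CD133- cells.

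Organelle transporters differed by less than 1.5-fold where they were above the floor. Of 3 mitochondrial members, all were lower in CD133+ cells, from -0.22 to -0.05, beside 50.9% of all genes. ABCB10, needed for haem synthesis in red cell precursors, was at -0.21 and 0.34, and ABCB6, a porphyrin transporter, at -0.22 and -0.32. ABCB8 was at -0.05 and 0.24, but its 3 probes disagreed in the ALDH sort, with 0.24, -0.37 and -0.03. The peroxisomal fatty acid transporter ABCD3 was at -0.24 and 0.18 and the lysosomal cobalamin transporter ABCD4 at -0.11 and 0.14, while ABCD2 and ABCB9 were below the floor. The sulfonylurea receptors ABCC8 and ABCC9, regulatory subunits of potassium channels, were below the floor in the CD133 sort, and ABCC8 passed it in the ALDH sort by little, at 5.02 in ALDH+ and 5.0 in ALDH- cells.

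The soluble members were above the floor on every array. ABCE1, which recycles ribosomes after termination, was at 7.74 in CD133+ and 8.07 in CD133- cells, and at 6.98 in ALDH+ and 7.49 in ALDH- cells. It was lower in both positive fractions, with differences of -0.33 and -0.51, and both arrays of the CD133 sort were above both of the ALDH sort. ABCF3 was at 7.03 in CD133+ and 7.11 in CD133- cells, and at 6.63 in ALDH+ and 7.13 in ALDH- cells, so the ALDH+ array alone was low. ABCF2 was at 7.04 in CD133+ and 6.85 in CD133- cells, and at 6.14 in ALDH+ and 6.49 in ALDH- cells, again higher on both arrays of the CD133 sort. ABCF1, which promotes translation initiation, was the steadiest of the 4, at 7.95 in CD133+ and 8.10 in CD133- cells, and at 7.98 in ALDH+ and 7.93 in ALDH- cells. Its 3 probes gave CD133 differences within 0.018 of each other, and 2 of them held identical values.

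**Figure D3:**
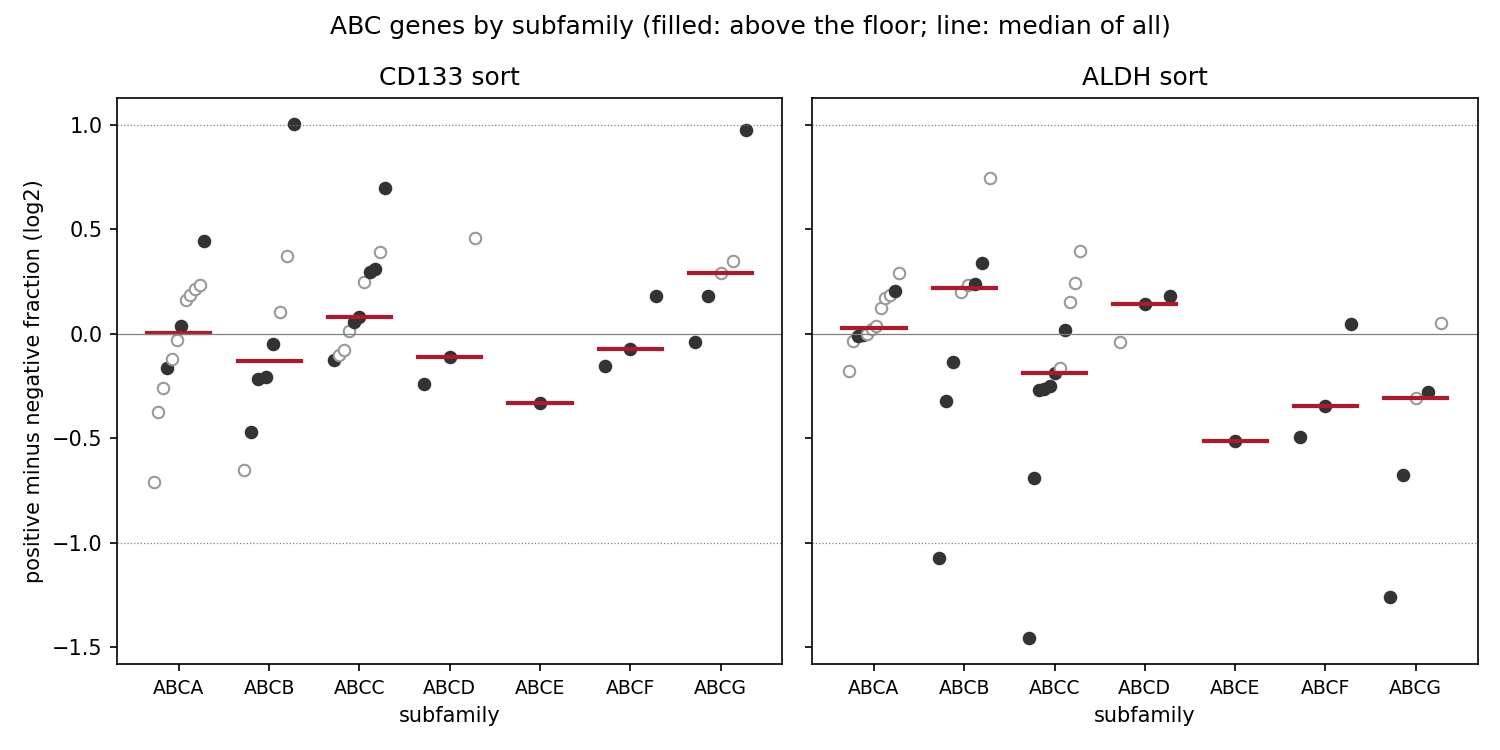
Log2 difference of the positive minus the negative fraction (vertical axis) for the 43 ABC genes by subfamily (horizontal axis), CD133 sort left and ALDH sort right; filled points were above the floor in that sort, open points below it, red lines are medians over all members of a subfamily and dotted lines mark 2-fold. The widest spreads in the ALDH sort are in ABCB, ABCC and ABCG, the subfamilies of ABCB1, ABCC2 and ABCG2, and the ABCA points lie near 0 in the ALDH sort, from -0.18 to 0.29.

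By subfamily, the CD133 and then the ALDH medians over all members came to 0.00 and 0.03 for A, -0.13 and 0.22 for B, 0.08 and -0.19 for C, -0.11 and 0.14 for D, -0.07 and -0.35 for F, and 0.29 and -0.31 for G; E holds ABCE1 alone. Above the floor in the ALDH sort were 3 of 12 genes of A, 5 of 8 of B, 7 of 11 of C, 2 of 3 of D, all 3 of F and 3 of 5 of G. The G median in the ALDH sort was -0.68 over those 3, which is the value of ABCG5. The B median there changed sign, to -0.14, over its 5. Subfamilies C and G had a positive CD133 and a negative ALDH median both with and without the floor; over its genes above the floor C stood at 0.19 and -0.26. They hold ABCC2, ABCC3, ABCG2 and ABCG5, already named for their large differences, so the medians of C and G in part restate that choice. No subfamily difference was tested.

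Of the marker lists of other programmes, that of the intestinal epithelium had medians with the signs of the 3 efflux pumps. The medians of the cell division and hepatocyte lists did not have them. These lists were chosen with earlier results of these data known, so their counts and medians may in part restate that choice. Of 12 intestinal epithelial markers, brush border genes among them, 12 were higher in CD133+ cells, beside 49% of all genes. In the ALDH sort 11 of them were lower in ALDH+ cells, beside 46.1%. The medians of these markers were 1.35 and -1.43. Their mean log2 level was 7.43 in CD133+ and 6.09 in CD133- cells, and 6.77 in ALDH+ and 8.0 in ALDH- cells; FABP2 was below the floor on all 4 arrays. Enterocytes also carry ABCB1, ABCC2 and ABCG2 on the brush border. Of 10 cell division genes, 9 were higher in ALDH+ cells (median 0.68), beside 53.8% of all genes. In the CD133 sort 5 of them were higher in CD133+ cells (median -0.01), beside 49%. Their mean level was 7.96 in CD133+ and 7.98 in CD133- cells, and 7.83 in ALDH+ and 7.16 in ALDH- cells. The 10 hepatocyte markers had medians of -0.38 and 0.10, and mean levels of 9.89 in CD133+ and 10.3 in CD133- cells, and 10.01 in ALDH+ and 9.97 in ALDH- cells. Among them 8 were lower in CD133+ cells, beside 57.1% of all genes above the floor. In ALDH+ cells 6 were higher and 4 lower, beside 48.5% and 51.5%. The 2 that were higher in CD133+ cells had the signs of the efflux pumps, TTR at 0.995 and -0.58 and FGB at 0.18 and -0.10. The part of these programmes in the ABC differences was not tested. In such bulk samples fewer cells of a type and less RNA per cell cannot be told apart.

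Of 3 measured ABC proteins named otherwise, the 2 above the floor had the signs of the 3 efflux pumps at smaller size. Each of these 2 has 3 probes, of which only the one with the highest mean is given. Among all genes that passed the floor in each sort, 2470 of 11293 likewise had the signs of the efflux pumps, at any size. The peptide transporter subunits TAP1 and TAP2, which load antigens, differed by 0.24 and -0.18 and by 0.27 and -0.46, while the chloride channel CFTR was below the floor. Of 14 listed transcriptional regulators of ABC genes 9 were analysed here. Of these 9, 7 were lower in CD133+ and 6 lower in ALDH+ cells, beside 50.9% and 46.1% of all genes, and 0 reached 2-fold. AHR, the xenobiotic receptor that induces ABCG2 among others, was the only one above the floor with the signs of the efflux pumps, at 7.48 in CD133+ and 6.94 in CD133- cells, and at 7.29 in ALDH+ and 7.99 in ALDH- cells. NFE2L2, the oxidative stress regulator, differed by -0.14 and -0.29, RXRA by -0.32 and 0.29, and the oxysterol receptor NR1H3 by -0.24 and -0.42. Of 11 listed carriers and partners 9 were analysed here, and all 9 were lower in ALDH+ cells, beside 46.1% of all genes, with a median of -0.28 over all 9 and of -0.56 over the 7 above the floor. In the CD133 sort 6 of the 9 were lower in CD133+ cells, beside 50.9% of all genes. The basolateral bile acid exporter subunits SLC51A and SLC51B differed by 0.03 and -1.83 and by 0.36 and -0.75, and the organic anion carrier SLCO2B1 by 0.29 and -0.67. The uptake carrier SLCO1B3 was 2-fold lower in CD133+ cells, at 4.42 in CD133+ and 5.47 in CD133- cells, differing by -1.05 and -0.28, and SLC22A7 differed by -0.47 and -0.23. Both genes were below the floor in CD133+ and in ALDH+ cells, so the sizes of their differences are uncertain. The hepatocyte uptake carriers SLC10A1 and SLCO1B1 lay below the floor on all 4 arrays.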

How the data were processed

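RNA of 4 sorted Huh7 fractions was hybridised to 1 Affymetrix array each. The authors' deposited values are log2 expression values made by RMA, as the submitters' processing notes name it; that they are log2 was inferred from their range of 0.556 to 13.5. Software version and genome build are not given in the sources used here. Since RMA equalises the distributions of arrays, it hides any shift common to most genes.

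Of 28869 probes, 19310 had exactly 1 symbol in the platform annotation, 1752 several, and 7807 were not listed. The highest-mean probe stood for each gene. All 43 member symbols matched RefSeq (GRCh38.p14) by gene identifier. Differences are positive minus negative fraction; genes were counted at 2-fold and 1.5-fold, with no test. All 4 values are given for members at 1.5-fold above the floor and for subfamilies E and F. Members, gene lists and motifs were chosen with earlier results of these data known. Protein sequences were not used here, so planned protein motifs are not given. Alternatives were other floors and folds, mean over probes, centring, a second quantile normalization and loess. Counting was tested on simulated data. Python 3.11.15, numpy 2.4.6, pandas 2.3.3 and matplotlib 3.10.9 were used.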

Additional observations from a re-analysis of the deposited data

Results flagged for a closer look

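ABCB1, ABCC2 and ABCG2 went in opposite directions in the CD133 and ALDH sorts, by 1.5-fold or more in each and above the floor on all 4 arrays. The CD133 difference minus the ALDH difference was 2.08 on the log2 scale for ABCB1, 2.15 for ABCC2 and 2.24 for ABCG2. With 1 array per fraction this contrast between the sorts was not tested.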

How the results depend on the processing

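No paired analysis was possible because each group has 1 array, and for the same reason no array could be left out. The 3 members 2-fold lower in ALDH+ cells were 3 under every alternative but the 1.5-fold threshold, which gave 5. The count 2-fold higher in CD133+ cells was 1, and became 3 at 1.5-fold and 2 after loess of each pair. With no floor the median of the members was -0.0079 in the ALDH sort, subfamily B came to 0.22 and G to -0.31 there, and in the CD133 sort C came to 0.082 and G to 0.29; these medians take in dim genes. Without the 5 members at 1.5-fold, an alternative chosen after seeing the data, the ALDH median was -0.14. A median counted as moved beyond 0.1 and a count beyond a ratio of 1.5. For a single gene the limit was the robust spread over genes above the floor, 0.238 in the CD133 and 0.341 in the ALDH sort. Of 228 recomputed values, 219 stayed within their tolerance and none that had passed 1.5-fold changed sign. Many of these could not move: raising dim values and averaging probes leave a 1-probe gene above the floor on all arrays unchanged. The 219 are therefore no measure of stability. Over the 5 alternatives run for each named gene, ABCC2 ranged from -1.47 to -1.41, ABCG2 from -1.28 to -1.23 and ABCB1 from -1.08 to -1.02 in the ALDH sort, and from 0.70 to 0.76, 0.96 to 1.02 and 1.01 to 1.06 in the CD133 sort. A floor on the mean over the 4 arrays was also added after seeing the data. Values below the floor have no reliable order.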

Other observations

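Among probes of ABC pseudogenes whose symbols end in P, which the member rule leaves out, ABCA11P was lower in both positive fractions, at log2 levels of 4.92 in CD133+ and 5.57 in CD133- cells, and 4.16 in ALDH+ and 5.0 in ALDH- cells. ABCA15P was below the floor on every array, with differences of -0.02 and -0.59. Pseudogene probes can share signal with related transcripts.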
